A study of Mus musculus with 6 samples.

Results

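The C/EBP genes Cebpa, Cebpb, Cebpd, Cebpe and Cebpg and the pseudokinase gene Trib1 were followed in blood neutrophils of mice given AVP and of control mice. These 6 genes were taken by name from 47561 gene and transcript features, and all 6 were found. The family was chosen by its FPKM values in these same AVP and control libraries, which were already known, so its differences between the groups are given as a description and without a p-value. The AVP group held 3 samples of neutrophils sorted by flow cytometry from peripheral blood after 30 days of AVP administration, and the control group held 3 samples labelled as negative control. What AVP stands for is not spelled out in the labels, and neither are dose, route, strain, sex or age. Whether the 3 samples within a group are separate animals is not stated either, so their spread may be technical.

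C/EBP proteins are basic leucine zipper transcription factors that bind DNA as dimers. C/EBP-alpha commits progenitors to the granulocyte lineage, C/EBP-epsilon drives late granulocyte maturation and the genes of the secondary granules, and C/EBP-beta and C/EBP-delta are known for inflammatory and emergency responses. C/EBP-gamma lacks a strong activation domain and works mainly as a dimer partner. TRIB1 has the fold of a kinase but acts as a scaffold: it brings the ubiquitin ligase COP1 to C/EBP-alpha, which is then degraded. The present measurements are of transcripts, so they do not show the amount of any C/EBP protein.

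Expression values were taken to be FPKM, a unit inferred from the values since the files name none. It is a level per gene that accounts for transcript length and for depth. The library totals were 755140 to 829725 FPKM and the estimated depth was 14200000 to 16800000 fragments. S100a8 was at 95287 to 121812 FPKM and S100a9 at 57428 to 68563 FPKM, and the 8 neutrophil markers were above 0 in all 6 libraries. The libraries differed in transcripts of other cells. The 6 basophil markers summed to 315 FPKM in AVP replicate 1, against 0 to 26.9 FPKM in the other 5 libraries. The 5 T cell markers summed to 112 FPKM in AVP replicate 3, against 0.424 to 13.7 FPKM elsewhere. The 9 monocyte markers summed to 209 FPKM in that replicate, against 502 to 1102 FPKM elsewhere. The 6 B cell markers summed to 1258, 4839 and 3788 FPKM in AVP replicates 1 to 3, against 6036, 7745 and 4893 FPKM in control replicates 1 to 3. Of these 6 markers, Igkc and Cd79b were lower in every AVP library than in any control library, and the groups overlapped for the other 4. Without Igkc, a choice made after seeing the data, the sums were 605, 1539 and 1078 FPKM after AVP, against 1473, 1517 and 1539 FPKM in controls, and the groups overlap. The 5 erythroid markers summed to 242554 FPKM in AVP replicate 1 and to 102661 to 154851 FPKM in the other 5 libraries. In bulk samples such as these, fewer cells of a type and less RNA per cell cannot be told apart.

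Trib1, Cebpa and Cebpb were higher after AVP in all 3 libraries than in any control library, whereas the groups overlapped for Cebpd, Cebpe and Cebpg. Not overlapping in the higher direction thus held for 3 of the 6 genes, where it held for 6.39% of the 8523 genes that reached 1 FPKM in at least 3 libraries. For Cebpb this rests on 41.2 against 40.4 FPKM. In an alternative, the genes of haemoglobin, immunoglobulins and mitochondria were removed and each library was rescaled to its own earlier total. Cebpb was then at 93.2, 50.1 and 101 FPKM after AVP, against 49, 52.5 and 33.4 FPKM in controls. Its groups overlapped, and 2 of the 6 genes (Trib1 and Cebpa) remained apart. All 6 genes reached 1 FPKM in at least 3 libraries. Under limma with Benjamini-Hochberg adjustment over these 8523 genes, 0 of the 6 were called higher or lower at a threshold of 0.05, and the background was 0.0% in each direction. At an unadjusted p under 0.05, 4.69% of all genes tested counted as higher and 3.78% as lower. The fitted fold change was above 0 for 5 of the 6 and for 47.7% of all genes. The sum of the B cell markers was lower after AVP with groups apart when Igkc was included, and the part of B cell transcripts in the values of the 6 genes was not tested. These counts come from the comparison in view of which the family was chosen, so nothing is read from them.

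**Figure D1:**
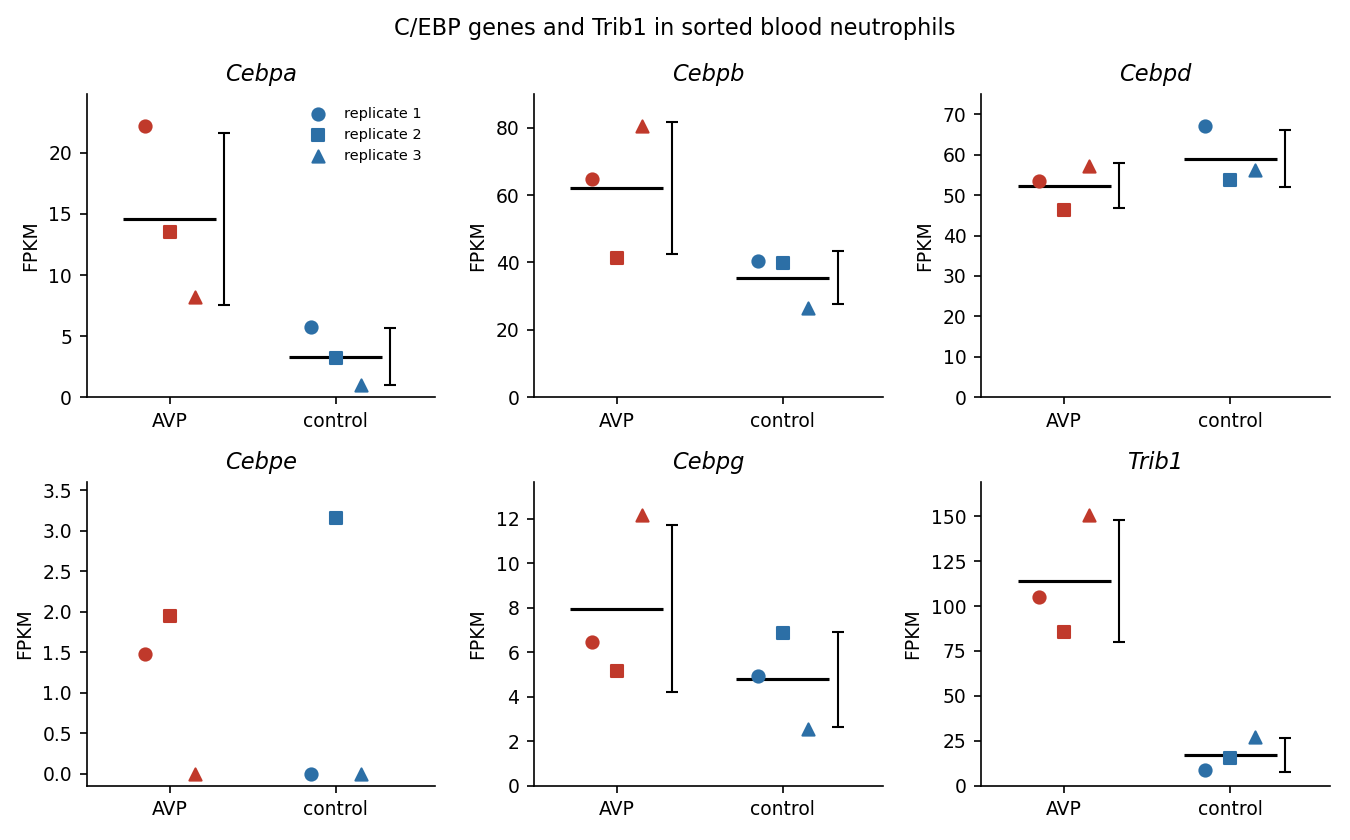
FPKM (vertical axes, linear) of the 6 genes in 3 AVP libraries and 3 control libraries, with symbols for the replicates, horizontal lines for means and bars for 1 SD. For Cebpe, which is listed at 0 in 3 libraries, the values are shown without a mean. All AVP points lie above all control points for Trib1, Cebpa and Cebpb, while Cebpd spans 46.2 to 67.1 FPKM over both groups.

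The 6 genes lie at 5 places in the genome, given here in the GRCm38 assembly. Cebpa (gene identifier 12606) is on chromosome 7 from 35119293 to 35121928 on the plus strand. Cebpg (12611) is on the same chromosome from 35046422 to 35056566 on the minus strand. Their starts are 62.7 kb apart, point away from each other and have 0 protein-coding genes between them in GENCODE M21. Cebpb (12608) is on chromosome 2 from 167688915 to 167690432 and Cebpd (12609) on chromosome 16 from 15887286 to 15889545, both on the plus strand. Cebpe (110794) is on chromosome 14 from 54710363 to 54712174 on the minus strand, and Trib1 (211770) on chromosome 15 from 59648654 to 59657099 on the plus strand. Of these neighbours, the groups were apart for Cebpa and overlapped for Cebpg. Both fitted log2 fold changes were above 0, at 1.99 (SE 0.68) for Cebpa and 0.69 (SE 0.62) for Cebpg. Whether the neighbours differ was not tested.

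Promoter sequences from RefSeq (GRCm38.p6) were matched for 3 of the 6 genes, Cebpa, Cebpb and Cebpg. These 3 are shown because no promoter was available for Cebpd, Cebpe and Trib1, and motifs were not tested against the group pattern. Each is the 250 bases before the start of the gene, read 5′ to 3′ on the gene's own strand, with matches to the searched motifs in capitals. The motifs were the TATA box TATAAA on the gene's strand and, on both strands, the CCAAT box, the CREB core TGACG, the AP-1 site TGANTCA, a loose C/EBP site TTNNGNAA and the NF-kappaB site.
Cebpa, chr7:35119043-35119292, plus strand: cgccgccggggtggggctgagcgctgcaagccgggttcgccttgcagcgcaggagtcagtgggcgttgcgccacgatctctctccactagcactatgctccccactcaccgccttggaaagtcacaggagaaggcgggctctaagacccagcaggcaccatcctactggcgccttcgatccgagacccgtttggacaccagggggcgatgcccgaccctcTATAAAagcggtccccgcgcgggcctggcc
Cebpb, chr2:167688665-167688914, plus strand: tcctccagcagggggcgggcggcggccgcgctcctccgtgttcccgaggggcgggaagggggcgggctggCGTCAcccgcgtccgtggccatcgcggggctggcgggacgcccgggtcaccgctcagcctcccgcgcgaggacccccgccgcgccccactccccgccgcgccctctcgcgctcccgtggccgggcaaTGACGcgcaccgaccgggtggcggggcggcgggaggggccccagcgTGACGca
Cebpg, chr7:35056567-35056816, minus strand: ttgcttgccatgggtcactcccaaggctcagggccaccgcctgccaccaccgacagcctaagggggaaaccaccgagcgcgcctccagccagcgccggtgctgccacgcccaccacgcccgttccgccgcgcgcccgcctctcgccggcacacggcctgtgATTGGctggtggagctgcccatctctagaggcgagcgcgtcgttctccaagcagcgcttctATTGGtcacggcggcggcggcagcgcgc
The capitals differ between the 3 genes. Cebpa has TATAAA starting 30 bases before its start, a motif that 7.59% of the 32851 promoters in the table hold. Cebpb has TGACG 3 times, starting 180 bases (read on the opposite strand), 53 bases and 7 bases before its start, and 17.8% of all promoters hold it at least once. Cebpg has CCAAT on the opposite strand (printed as ATTGG) 89 and 28 bases before its start, a motif held by 33.8%. The AP-1, C/EBP and NF-kappaB letters, held by 6.75%, 36.8% and 7.25% of all promoters, do not occur in these 3 windows, and no searched motifs overlap in them. The windows contain 66.4% (Cebpa), 81.6% (Cebpb) and 70.8% (Cebpg) G and C, against a median of 52.4% over all promoters.

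Cebpa, the factor that starts the granulocyte programme, was at 22.2, 13.5 and 8.24 FPKM in AVP replicates 1 to 3, against 5.72, 3.22 and 1.03 FPKM in control replicates 1 to 3. Every AVP library lay above every control library, but the lowest AVP value and the highest control value were close to each other compared with the spread within the groups. The means were 14.6 ± 7.03 FPKM after AVP and 3.32 ± 2.35 FPKM in controls (SD, n = 3 each). The fitted log2 fold change, on values of log2(FPKM + 1) after scaling of the libraries, was 1.99 (SE 0.68). With a pseudocount of 5 it was 1.265 and with 0.1 it was 2.365. The lowest value, in control replicate 3, rests on about 38 fragments, against about 366 to 867 in the AVP libraries, as estimated from the exon length and the depth. Cebpa was highest in AVP replicate 1, which held the most erythroid and basophil transcripts, and without that library its log2 fold change was 1.6. An antisense transcript annotated over Cebpa in GENCODE M21, Gm45091, has no value here.

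Cebpe, the late granulocyte factor, was barely detected in these blood neutrophils. It was at 1.48, 1.94 and 0 FPKM in AVP replicates 1 to 3, against 0, 3.16 and 0 FPKM in control replicates 1 to 3. Each value above 0 rests on about 27 to 59 fragments, the groups overlap fully, and the fitted log2 fold change was 0.30 (SE 0.73). It was 1.144 with a pseudocount of 0.1 and 0.058 with one of 5. Genes of granulocyte progenitors were also low: Mpo, Elane, Ctsg and Ms4a3, granule proteins and a surface protein of early stages, were listed at 0 in all 6 libraries. Prtn3, the gene of proteinase 3, had a value above 0 in a single library, AVP replicate 2 (7.6 FPKM). A listed 0 may also stand for a value that could not be estimated.

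Cebpb, the factor of emergency granulopoiesis, was at 64.7, 41.2 and 80.5 FPKM in AVP replicates 1 to 3, against 40.4, 39.8 and 26.4 FPKM in control replicates 1 to 3. The groups do not overlap, but AVP replicate 2 lay next to control replicates 1 and 2. The means were 62.1 ± 19.7 FPKM after AVP and 35.5 ± 7.94 FPKM in controls (SD, n = 3 each), with a fitted log2 fold change of 0.84 (SE 0.38). Tmem189, a protein-coding gene on the opposite strand, shares 312 exonic bases with Cebpb in GENCODE M21. It was at 10.9, 26.6 and 17.3 FPKM after AVP, against 3.23, 10.1 and 6.95 FPKM in controls. The counting is not stated to use strand, so reads of the shared bases cannot be assigned to Cebpb or Tmem189. Tmem189 was itself higher in every AVP library than in any control library, the same direction as Cebpb. Its highest value was in AVP replicate 2, where Cebpb was lowest within its group. The part of Tmem189 reads in the Cebpb values was not tested.

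Cebpd, the C/EBP gene of the acute phase response, was the steadiest of the 6. It was at 53.6, 46.2 and 57.2 FPKM in AVP replicates 1 to 3, against 67.1, 53.8 and 56.2 FPKM in control replicates 1 to 3. The groups overlap, and the highest library of each group was 1.24 (AVP) and 1.25 (control) times its lowest. The fitted log2 fold change was -0.09 (SE 0.29), and its sign turned without AVP replicate 2 (0.046). Spidr, a DNA repair gene on the opposite strand that shares 562 exonic bases with Cebpd, was at 5.19, 1.13 and 5.03 FPKM after AVP, against 11.1, 4.5 and 2.64 FPKM in controls.

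Cebpg, the dimer partner, was at 6.46, 5.18 and 12.2 FPKM in AVP replicates 1 to 3, against 4.92, 6.86 and 2.57 FPKM in control replicates 1 to 3. Only AVP replicate 3 lay above all controls. Gm45095, an antisense transcript that shares 4 exonic bases with Cebpg, was at 1.54 FPKM or lower in every library. The fitted log2 fold change was 0.69 (SE 0.62), and it was 0.386 without AVP replicate 3 and 0.38 without control replicate 3. AVP replicate 3 also held the highest Cebpb and Trib1 values, the T cell transcripts and the fewest monocyte transcripts, and the part of these other cells in the Cebpg value was not tested.

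Trib1, the scaffold that hands C/EBP-alpha to COP1, had the widest gap between the groups among the 6 genes. It was at 105, 85.7 and 151 FPKM in AVP replicates 1 to 3, against 8.56, 15.2 and 27.2 FPKM in control replicates 1 to 3. The lowest AVP library was well above the highest control library. The controls themselves differed 3.17-fold between the lowest and the highest, more than the 1.77-fold between the AVP libraries. The means were 114 ± 33.8 FPKM after AVP and 17.0 ± 9.43 FPKM in controls (SD, n = 3 each). The fitted log2 fold change was 2.85 (SE 0.46), which ranked 47 of 8523 genes from the top, where Cebpa ranked 173 and Cebpb 1172. Leaving out any 1 library placed the Trib1 fold change between 2.457 and 3.24, the highest without control replicate 3. It was 2.834 without AVP replicate 1, which held the basophil transcripts, and 2.643 without AVP replicate 3, which held the T cell transcripts. The 9 monocyte markers summed to 836, 1042 and 209 FPKM after AVP, against 502, 797 and 1102 FPKM in controls. The AVP library with the most Trib1 had the lowest sum and the control library with the most Trib1 the highest. The part of other cells in the Trib1 values was not tested.

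**Figure D2:**
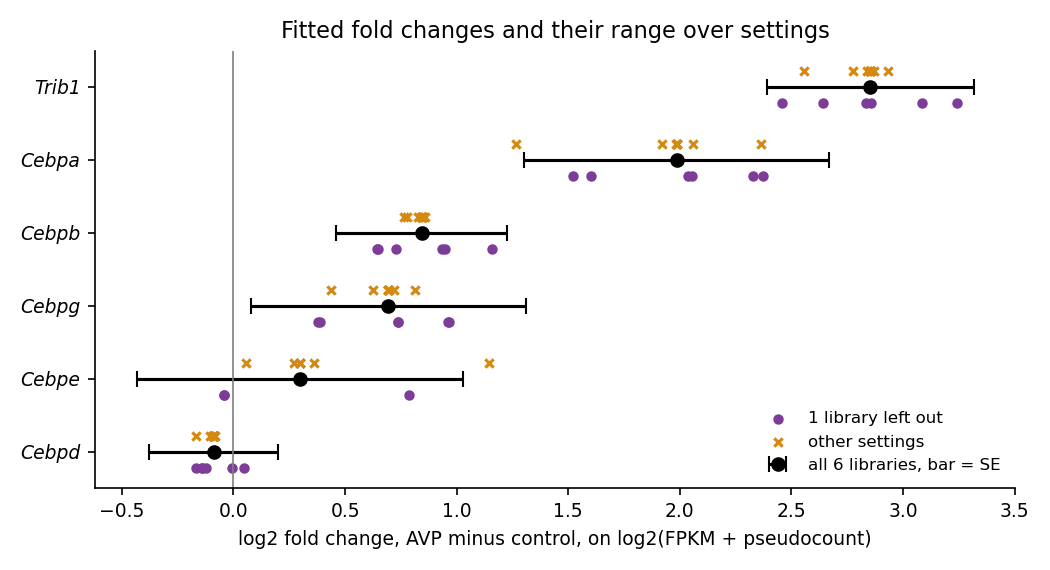
Fitted log2 fold change (horizontal axis, AVP minus control) of the 6 genes with all 6 libraries (black, bar 1 SE), with 1 library left out (purple points) and under other settings (orange crosses). Trib1 stays between 2.457 and 3.24 and Cebpb between 0.643 and 1.157, Cebpa is spread from 1.265 to 2.371 and Cebpe from -0.044 to 1.144, and Cebpd lies around 0.

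The order of the 6 genes by FPKM, a level per length, was not the same in the groups. After AVP, Trib1 came first (114 FPKM), then Cebpb (62.1), Cebpd (52.3), Cebpa (14.6), Cebpg (7.96) and Cebpe (1.14). The libraries of Trib1 and Cebpb did not overlap, those of Cebpb and Cebpd did, and so did those of Cebpa and Cebpg. In controls, Cebpd came first (59.0 FPKM), then Cebpb (35.5), Trib1 (17.0), Cebpg (4.78), Cebpa (3.32) and Cebpe (1.05). There Cebpd stood apart from Cebpb, while Cebpb overlapped Trib1, Cebpg overlapped Cebpa and Cebpa overlapped Cebpe. Trib1 was thus below Cebpd in every control library and above it in every AVP library. The ratio of Trib1 to Cebpd FPKM was 1.96, 1.85 and 2.65 in AVP replicates 1 to 3, against 0.128, 0.283 and 0.483 in control replicates 1 to 3.

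The shares of Cebpb, Cebpd and Cebpa among the 5 C/EBP genes were apart between the groups, while the sum of the 5 overlapped. The summed FPKM was 148, 108 and 158 after AVP, against 118, 107 and 86.2 in controls, and the groups overlap. Cebpd took 36.1%, 42.8% and 36.2% of that sum after AVP, against 56.8%, 50.3% and 65.2% in controls. Cebpb took 43.6%, 38.2% and 50.9% after AVP, against 34.2%, 37.3% and 30.6% in controls. Cebpd, the leading C/EBP gene in every control library, was second to Cebpb in AVP replicates 1 and 3 but not in AVP replicate 2. Cebpa took 14.9%, 12.5% and 5.21% after AVP, against 4.84%, 3.01% and 1.19% in controls, so AVP replicate 3 was only just above control replicate 1. These shares are within a library and do not depend on how libraries are scaled.

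Trib1 and Cebpa did not peak in the same libraries. In both groups the library with the most Trib1, replicate 3 in each, had the least Cebpa. Trib1 FPKM was 4.73, 6.36 and 18.4 times Cebpa FPKM in AVP replicates 1 to 3, against 1.5, 4.72 and 26.5 times in control replicates 1 to 3. The groups overlap for this ratio, unlike for either gene alone. With 3 libraries a group the order within groups was not tested.

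**Figure D3:**
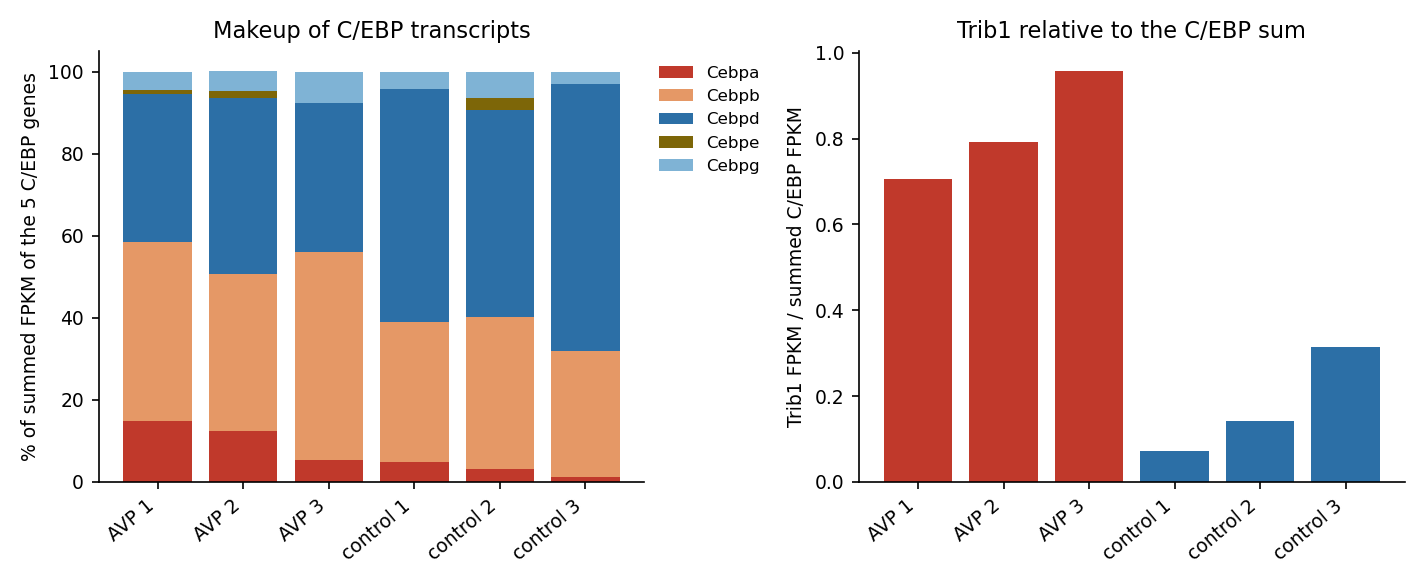
Left, the share (%) of each C/EBP gene in the summed FPKM of the 5 genes, stacked by library. Right, Trib1 FPKM divided by that sum in the same libraries. Cebpd takes 36.1% to 42.8% in AVP libraries and 50.3% to 65.2% in controls, and the Trib1 ratio is 0.707 to 0.957 in AVP libraries and 0.0725 to 0.315 in controls.

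The genes with the most similar pattern over the 6 libraries were taken by Pearson's r on the scaled log2 values, among 4512 other genes with a mean of at least 5 FPKM (4513 for Cebpe). These r values describe likeness and carry no test, since all genes share the same libraries and scaling. For Trib1 they were Nfkbiz (0.998), an atypical inhibitor of NF-kappaB, Spty2d1 (0.993), a histone chaperone gene, and Picalm (0.991), a clathrin assembly gene. Nfkbiz was at 206, 216 and 284 FPKM in AVP replicates 1 to 3, against 42.5, 63.8 and 95 FPKM in control replicates 1 to 3, and so shared with Trib1 the peak in replicate 3 of each group. For Trib1, 97 genes had an r over 0.9. Cebpa was most like Diaph1 (0.984), a formin of the actin cytoskeleton, Tuba1a (0.968), an alpha tubulin, and Rnf31 (0.963), a subunit of the linear ubiquitin ligase. Diaph1 was at 29.6, 21.4 and 14.9 FPKM after AVP, against 15.6, 9.15 and 7.03 FPKM in controls, so it shared with Cebpa the order of libraries within both groups, although its groups overlap.

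Cebpb was most like Kif23 (0.979), a mitotic kinesin, Polr2c (0.973), a subunit of RNA polymerase II, and Nsmce4a (0.967), a subunit of the SMC5/6 complex. Cebpd was most like Calm3 (0.966), a calmodulin gene, Slc44a2 (0.966), a choline transporter, and Ccdc88b (0.95). Cebpg was most like Rtn4ip1 (0.984), a mitochondrial oxidoreductase, Ccdc71l (0.973) and Ugcg (0.973), which makes glucosylceramide. Cebpe was most like Csta2 (0.992), a stefin gene, Tada1 (0.991), a subunit of the SAGA complex, and Rpf1 (0.984), a ribosome assembly factor. Csta2 and Tada1 are listed at 0 in the same 3 libraries as Cebpe, which sets those r values.

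The list of TRIB partners and the COP1 ligase is too small to tell its counts from the shares over all genes. Of 10 genes of that list besides Trib1, 8 reached the level for testing, and 0 were called by limma over all genes. The groups were apart for 0 in the higher direction, where the background is 6.39%, and for 1 in the lower direction, where it is 7.63%; at an unadjusted p under 0.05, 0 counted as higher and 1 as lower. The median log2 fold change was -0.08, against -0.04 over all genes tested. The gene apart was Cul4b, a cullin of the ligase, at 2.63, 5.33 and 6.54 FPKM after AVP, against 30.1, 12.5 and 14.7 FPKM in controls. Its fitted log2 fold change was -1.68 (SE 0.56, limma adjusted p = 0.415). Cop1 itself, named after its values were seen, was at 1.23, 4.72 and 4.02 FPKM after AVP, against 5.48, 3.88 and 2.96 FPKM in controls, and the groups overlap. The most abundant genes of the list were Rbx1, the RING subunit, with a log2 fold change of -0.23 (SE 0.33), and Map2k1, which encodes the MAP kinase kinase MEK1, a binding partner of TRIB1, with one of -1.09 (SE 0.81). Map2k1 was at 2.13 FPKM in AVP replicate 1 and at 22.7 to 39.2 FPKM in the other 5 libraries. Trib2 was at 0, 2.84 and 1.72 FPKM after AVP, against 0.0198, 3.37 and 1.06 FPKM in controls, and Trib3 was listed at 0 in all 6.

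Related leucine zipper factors and dimer partners of C/EBP proteins showed 0 of 8 tested genes with groups apart in either direction. Over all genes tested, 6.39% were apart in the higher and 7.63% in the lower direction. A list of 8 genes is too small to tell 0 from these shares. Limma called 0, and 0 passed an unadjusted p of 0.05 (4.69% of all genes as higher and 3.78% as lower). Their median log2 fold change was 0.30. Atf4, the factor of the integrated stress response, had one of 0.13 (SE 0.30), and Ddit3, which encodes the C/EBP relative CHOP, one of -0.27 (SE 0.61). Ddit3 was at 21.7 FPKM in AVP replicate 1 and at 51.8 to 124 FPKM in the other 5 libraries.

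Among known targets, the inflammatory genes linked to C/EBP-beta and C/EBP-delta were the list with the most genes apart. Of its 8 tested genes the groups were apart in the higher direction for 5 (Il1b, Tnf, Ptgs2, Hp and Ccl3) and in the lower for 0, where 6.39% and 7.63% of all genes tested were. For Ptgs2 this rests on 64.3 FPKM in AVP replicate 3 against 62.1 FPKM in control replicate 3. At an unadjusted p under 0.05, 4 counted as higher and 0 as lower (4.69% and 3.78% of all genes). Limma called 0 over all genes, and the median log2 fold change was 0.76. All the lists were chosen with earlier results of these data known. Nothing is therefore read from these counts or from the order of the lists. Tnf, the gene of the cytokine TNF, was at 34.6, 35.3 and 56.1 FPKM after AVP, against 6.94, 5.42 and 1.38 FPKM in controls (log2 fold change 3.15, SE 0.57, limma adjusted p = 0.137). Hp, which encodes haptoglobin, was at 894, 919 and 648 FPKM after AVP, against 493, 439 and 625 FPKM in controls (log2 fold change 0.74, SE 0.23). For the chemokine gene Ccl3 the log2 fold change was 2.48 (SE 0.50), and for Il1b it was 0.81 (SE 0.17). Tnf, Ccl3 and Il1b are also targets of NF-kappaB, so the list is not particular to C/EBP factors. The most abundant genes, S100a8 and S100a9, differed little, with a log2 fold change of -0.06 for S100a8 and 0.15 for S100a9 (SE 0.14 each). The whole list held 15 genes, of which Csf3, Nos2, Il12b and Ptx3 were listed at 0 in all 6 libraries. Il6, Saa3 and Arg1 were too low to be tested. Il6 was at 1.68, 0 and 0 FPKM after AVP, against 0, 5.42 and 0 FPKM in controls. Saa3 was above 0 only in control replicate 3 (6.52 FPKM) and Arg1 only in control replicate 2 (0.305 FPKM).

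The granule genes that depend on C/EBP-epsilon did not share a direction. Of 9 tested, the groups were apart in the higher direction for 2 (Lcn2 and Ngp) and in the lower for 1 (Mmp9). Over all genes tested these shares were 6.39% and 7.63%. Limma called 0. At an unadjusted p under 0.05 the numbers were the same, 2 and 1 (4.69% and 3.78% of all genes). Lcn2, the iron-scavenging lipocalin, had a log2 fold change of 1.51 (SE 0.27). Ngp, neutrophilic granule protein, was at 24.1, 39.6 and 13.9 FPKM after AVP, against 5.41, 0 and 13.6 FPKM in controls, so AVP replicate 3 and control replicate 3 nearly touched. Mmp9, gelatinase B, was at 197, 101 and 143 FPKM after AVP, against 374, 229 and 231 FPKM in controls (log2 fold change -0.85, SE 0.35). For Anxa1, the most abundant of the list, it was 0.58 (SE 0.37). The median of the list was 0.50.

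Of the targets of C/EBP-alpha, 7 were tested, and 4 (Mpo, Elane, Ctsg and Gfi1) were listed at 0 in all 6 libraries. Among the 7 tested genes, the groups were apart for Csf2ra in the higher direction and for 0 in the lower. Over all genes tested these shares were 6.39% and 7.63%. A list of 7 genes is too small to tell its counts from these shares. Limma called 0, and 0 passed an unadjusted p of 0.05 (4.69% of all genes as higher and 3.78% as lower). The median log2 fold change was 0.04. Csf2ra, the alpha chain of the GM-CSF receptor, was at 20.9, 23.1 and 58.5 FPKM after AVP, against 16.9, 14.8 and 18.5 FPKM in controls. Its highest value was in AVP replicate 3. Csf3r, the G-CSF receptor and a classic C/EBP-alpha target, was at 1144, 743 and 1014 FPKM after AVP, against 1092, 948 and 918 FPKM in controls. Its log2 fold change was 0.04 (SE 0.24), and -0.05 on the deposited scale. Lyz2, lysozyme, was at 771 FPKM in AVP replicate 3 and at 2010 to 5123 FPKM in the other 5 libraries, a log2 fold change of -0.29 (SE 0.64).

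Of 9 other tested transcription factors of granulopoiesis, the groups were apart in the higher direction for 4 (Klf4, Klf6, Rara and Id1) and in the lower for 0, beside 6.39% and 7.63% of all genes. For Klf4, a gene of low level, this rests on 1.76 FPKM in AVP replicate 3 against 1.67 FPKM in control replicate 1. At an unadjusted p under 0.05, 2 counted as higher and 0 as lower (4.69% and 3.78% of all genes). Limma called 0 over all genes, and the median log2 fold change was 0.82. The fold change was above 0 for 7 of the 9, and for 47.7% of all genes. It was below 0 for Irf8 (-1.82, SE 0.85) and Ets1 (-0.77, SE 0.60), whose groups overlap. This list too was chosen with earlier results known, and nothing is read from its counts. Id1, an inhibitor of helix-loop-helix factors, was at 93.1, 34.1 and 36.3 FPKM after AVP, against 7.88, 26.8 and 14.5 FPKM in controls (log2 fold change 1.75, SE 0.60). Klf6, a Krüppel-like factor, was at 170, 133 and 241 FPKM after AVP, against 92, 81.9 and 125 FPKM in controls (0.92, SE 0.31). Rara, the retinoic acid receptor alpha, had a log2 fold change of 0.82 (SE 0.39). Spi1, the gene of PU.1, was at 121, 246 and 155 FPKM after AVP, against 164, 79.8 and 71.9 FPKM in controls, and its groups overlap. Gfi1, the repressor that acts beside C/EBP-epsilon in granulocyte maturation, was listed at 0 in all 6 libraries.

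**Figure D4:**
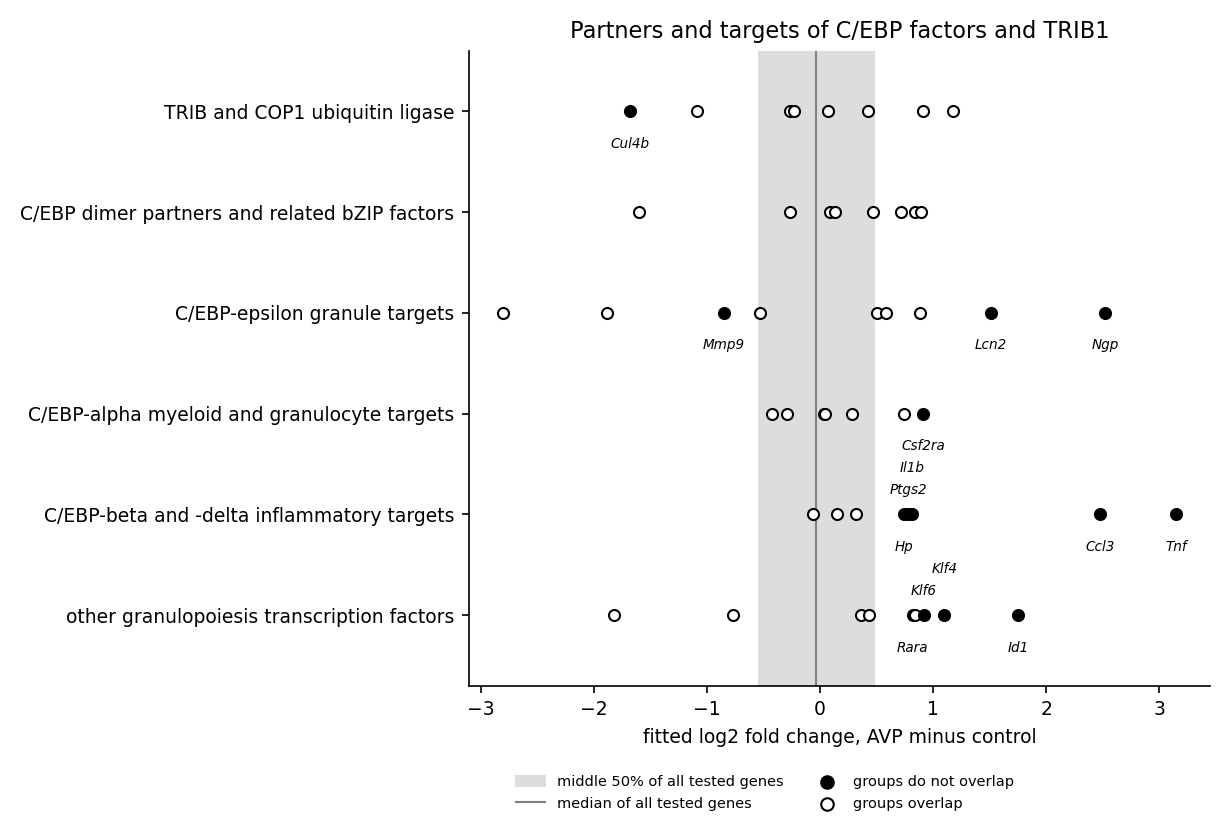
Fitted log2 fold change (horizontal axis, AVP minus control) of each tested gene in the 6 lists of partners, targets and related factors, with filled points where the groups do not overlap. The grey band spans the middle 50% of all tested genes, -0.54 to 0.48. Most filled points lie right of the band, in the inflammatory target list and among other granulopoiesis factors, and Cul4b and Mmp9 lie left of it.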

How the data were processed

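RNA of flow-sorted blood neutrophils (3 AVP and 3 control samples, grouped by the labels) was made into TruSeq libraries and sequenced on a NovaSeq, per the labels' protocols. The submitters' processing notes name the build mm10 and the tools HISAT2 2.1, featureCounts 1.6.4, cutadapt 1.16.5, bcl2fastq 2.19 and DESeq2 2.11.40.6, without their roles, the annotation or any use of strand. What the authors deposited is taken to be FPKM per gene, 1 file per library: the files name no unit, so this was inferred from values that are not whole and whose totals differ. TPM, a level per length scaled to a fixed total, could not be fully told apart from it if rows were left out. The estimated depth and fragment numbers rest on the unit being FPKM.

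Testing was limited to the 8523 genes that reached 1 FPKM in 3 or more libraries. Scaling used the mean log ratio of each library to the geometric mean of all, after trimming 30% of the ratios and 5% of the levels from both ends. Differences of log2(FPKM + 1) were fitted with limma 3.58.1 in R 4.3.3 (intensity trend, Benjamini-Hochberg adjustment, threshold 0.05), and fold changes on this scale understate those of low genes. Printed FPKM and overlaps are of the deposited values. Depth was estimated from the value that 1 fragment adds to short pseudogenes. The fit was also run on simulated data with independent libraries. These lack the differences in transcripts of other cells, so nothing is read from that run. Python 3.11.15, pandas 2.3.3, numpy 2.4.6 and matplotlib 3.10.9 were used for the rest.

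The members and lists were chosen with earlier results of these data known. From each list the text names the 2 genes with the highest mean and up to 4 of at least 5 FPKM with groups apart and the smallest p, and for each of the 6 genes the 3 with the highest r; predicted genes, pseudogenes and receptor segments were left out of the latter. Other genes named were chosen after their values were seen. The alternatives were other scalings, filters and pseudocounts, a replicate block, robust moderation, no trend, each library left out and removal of haemoglobin, immunoglobulin and mitochondrial genes.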

Additional observations from a re-analysis of the deposited data

How the results depend on the processing

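With 3 libraries against 3 and values without counts, limma called 0 of 8523 genes; it called 11 of 3675 with a filter of 10 FPKM, 3 with a pseudocount of 5, 1 without the intensity trend, and 0 to 4 with each library left out, the 4 without control replicate 3. Of the 6 genes and the list genes, 0 were called under any of the 16 alternatives. Genes with groups apart numbered 1195, against 610 with the 10 FPKM filter (fewer genes tested) and 1819 to 2178 with a library left out (fewer samples). Judged on scaled values, an alternative chosen after seeing the data, they were 1189. The groups for Cebpb overlapped once haemoglobin, immunoglobulin and mitochondrial genes were removed. They were apart for Cebpd without AVP replicate 3 and for Cebpg without control replicate 2. Trib1 (2.457 to 3.24), Cebpa (1.265 to 2.371), Cebpb (0.643 to 1.157) and Cebpg (0.38 to 0.965) kept a fold change above 0 under each alternative in which they were tested. With a library left out, Cebpd lay between -0.169 and 0.046, above 0 only without AVP replicate 2. Cebpe lay between -0.044 and 0.787 with a library left out, and at 1.144 with a pseudocount of 0.1 and 0.058 with one of 5. It was below 0 without control replicate 1 (-0.044) or control replicate 3 (-0.042); the cause was not tested. Cebpa, Cebpe and Cebpg were below the 10 FPKM filter, and Cebpe was not tested without AVP replicate 1, AVP replicate 2 or control replicate 2. Same-numbered libraries did not deviate together (r of 0.02, -0.013 and -0.042 across genes). Such r values cannot exclude a pairing or batch that affects few genes. The fit with the replicate block called 0 genes. With an unadjusted threshold of 0.05 that fit gave 355 higher and 317 lower genes, against 400 and 322 without the block.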
